A study of Homo sapiens with 108 samples.

Results

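ZMAT3 and 8 further genes of the p53 circuit were followed across a SLAM-seq series of HEK293T cells. The 9 genes, out of 19761 counted in the files, were chosen by name for their place in the circuit: ZMAT3 itself, MDM2, MDM4 and RCHY1, which restrain p53, and CDKN1A, CCNG1, PHLDA3, TP53INP1 and SESN1, which p53 activates. The rule for membership uses gene names and no measured value, but the choice was made with earlier results of these data known. Reads and T>C conversions were summed over the 3′ UTR intervals of each gene, and each mRNA was described by its level and its label in every arm and at every chase time. SLAM-seq marks RNA made in the presence of 4-thiouridine (4SU), because alkylated 4SU is read as C, so a labelled transcript shows T>C conversions. During a chase with unlabelled uridine the marked molecules are lost as the mRNA turns over.

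p53 is a transcription factor that answers DNA damage and other stress by switching on genes for cell cycle arrest, apoptosis and repair. MDM2 is at once a p53 target and the ubiquitin ligase that sends p53 to degradation, which closes a feedback loop, and its relative MDM4 holds p53 inactive by binding it. HEK293T cells carry the SV40 large T antigen, which binds p53 and blocks its action on target genes, so the circuit is examined here in cells where p53 is not free. ZMAT3 is a p53 target that encodes a zinc-finger protein that binds RNA.

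The series used HEK293T cells, a human embryonic kidney line, which received by lentivirus a hairpin (shRNA) against ZMAT3, BRCA1, CNOT4, MAZ, PHF7, ZFP36L1, ZMAT5 or ZNF706, or a non-targeting hairpin (NT), followed by puromycin selection. All 9 arms were treated with 10 µM 4SU for 24 h with the medium changed every 8 h, then with 1 mM uridine for 0, 2, 4 or 8 h. Each arm and time had 3 replicates, called biological by the methods, giving 12 libraries per arm. The study's list of hairpins gives 1 hairpin sequence for ZMAT3.

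Reads in 3′ UTRs ranged over the libraries between 63659 (PHF7 8 h replicate 3) and 30750027. The mRNA named by the hairpin was called lower than in NT in the ZMAT3, MAZ, ZMAT5 and ZNF706 arms. In the libraries labelled ZFP36L1 the ZFP36L1 mRNA was called higher (log2 0.80, edgeR adjusted p = 0.00233), against their label. CNOT4 mRNA stood at log2 -0.04 (adjusted p = 0.954) in the CNOT4 arm, BRCA1 mRNA at log2 -0.91 (adjusted p = 0.220) in the BRCA1 arm and PHF7 mRNA at log2 -2.07 ± 1.18 SE (adjusted p = 0.336) in the PHF7 arm, with medians of 0.842 CPM there and 0.461 CPM in NT. Libraries of the CNOT4 arm held 27.7 to 34.0 covered T positions per read and those labelled ZFP36L1 25.9 to 33.0, against 37.1 to 37.8 in NT. The HEK293 markers VIM and NEFL had medians of 789 and 50.4 CPM over all libraries, while PAX2, a marker of embryonic kidney, had a median of 0. Of 9 markers of other cell types 8 had a median of 0, and COL1A1, a fibroblast collagen, had 14.9 CPM.

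The hairpin against ZMAT3 is shown because the level of its target is the first check of the ZMAT3 libraries. Its 21-base sense strand, taken from the study's list of hairpins and located in hg38, matches ZMAT3 at chr3:179030970-179030990 on the minus strand, inside coding sequence in 4 of 4 annotated GENCODE transcripts and outside the 7796-base 3′ UTR interval that was counted. Capitals are not used in it, since all of it matches the sequence of the mRNA.
ZMAT3 hairpin sense strand: catggtaagaaactccgaaat

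AU-rich elements are 3′ UTR sequences that ZFP36-family proteins bind to speed the decay of an mRNA. The heptamer TATTTAT, searched in the mRNA sequence only and with overlapping matches counted, occurred in 40.3% of 10484 genes with a mean of at least 5 CPM. Among the 9 members it was found 3 times in MDM2, 2 times in RCHY1, 2 times in TP53INP1 and once in MDM4, and in none of the counted intervals of ZMAT3, CDKN1A, CCNG1, PHLDA3 and SESN1. Long intervals hold it more often: it occurred in 95.3% of genes whose counted length lay within 20% of that of MDM2, in 58.1% for RCHY1, and in 78.8% for ZMAT3, which has none. The sites of RCHY1, whose label gave the calls described below, and of MDM2 and MDM4 are printed with the heptamer in capitals (hg38, in the sense of the mRNA, 5′ to 3′).
RCHY1, chr4:75481743-75481771, minus strand: catttagcaagTATTTATtgagcaactgc
RCHY1, chr4:75479078-75479106, minus strand: gtacaatgcatTATTTATtatactcacca
MDM2, chr12:68839571-68839599, plus strand: tctagtagcatTATTTATagcagccaaga
MDM2, chr12:68842214-68842242, plus strand: atgccaagctaTATTTATaatgaacaaat
MDM2, chr12:68844762-68844790, plus strand: tattttattttTATTTATtttttgagacg
MDM4, chr1:204553623-204553651, plus strand: tgtcaaattaaTATTTATgattgttatct

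Over 9 members and 8 knockdowns, 20 of 72 differences in level from NT were called, 9 higher and 11 lower. A call required an adjusted p under 0.05 in edgeR's quasi-likelihood test over all genes and a fold over 1.2. The 8 comparisons share the 12 NT libraries, so they are given side by side and not set against each other. Beside each count stands the share of all genes tested that was called in that comparison. Of the 9 members, 3 were called in the ZMAT3 arm, 1 higher and 2 lower, where 10.2% of all genes were called (5.49% higher, 4.75% lower). The CNOT4 arm had 5, with 2 higher and 3 lower (27.0% of all genes, 13.5% in each direction). The libraries labelled ZFP36L1 had 7, with 4 higher and 3 lower (40.0% of all genes, 21.7% higher and 18.3% lower). The PHF7 arm had 2, both lower (8.41% of all genes, 3.89% higher and 4.53% lower), and the MAZ arm 1, lower (8.74%, with 5.19% higher and 3.55% lower). The ZMAT5 arm had 1, higher (9.51%, with 5.29% higher and 4.22% lower), and the ZNF706 arm 1, higher (5.15%, with 2.85% higher and 2.29% lower). The BRCA1 arm had 0 (0.0785% of all genes, 0.0393% in each direction), with 1 member at an unadjusted p under 0.05 and 0 called by DESeq2. Of all genes there, 877 of 12735 had an unadjusted p under 0.05. The median over the members, which went both ways, stood at log2 0.02 in ZMAT3 beside 0.09 for all genes, -0.21 beside 0.08 in CNOT4, 0.10 beside 0.08 in MAZ, 0.07 beside 0.07 in PHF7, -0.18 beside 0.15 in the libraries labelled ZFP36L1, 0.02 beside 0.06 in ZMAT5, 0.17 beside 0.05 in ZNF706 and -0.18 beside -0.03 in BRCA1. When each replicate number was left out in turn, 8 of the 20 calls held throughout and 12 were lost at least once.

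**Figure D1:**
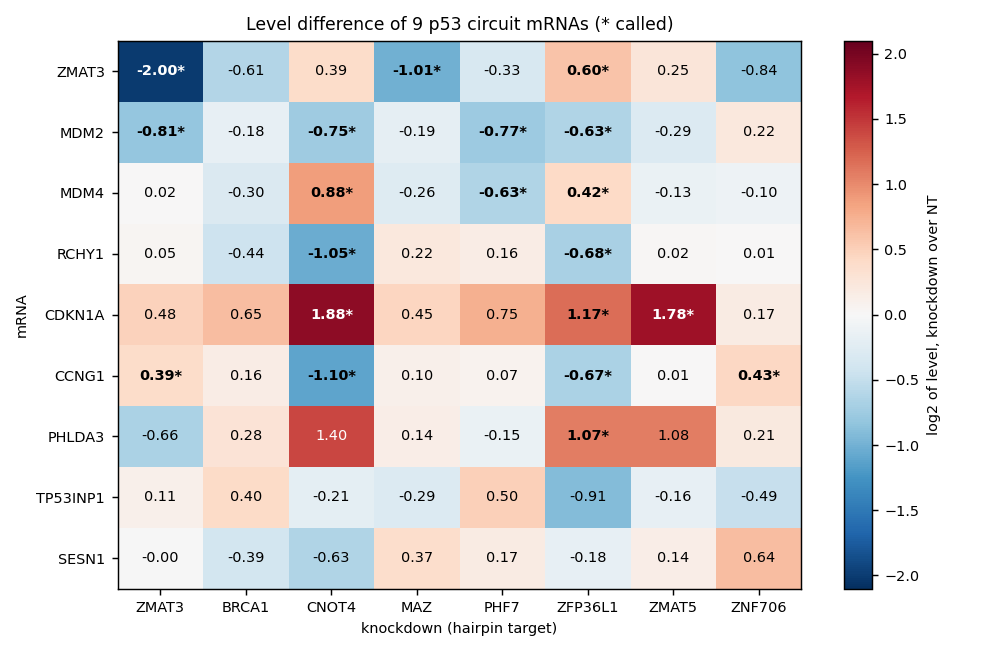
Log2 of the level in each knockdown over NT (colour and number) for the 9 mRNAs, in rows, and the 8 knockdowns, in columns, from edgeR fits of 12 against 12 libraries. An asterisk marks the 20 called differences, the lowest being ZMAT3 in its own knockdown (-2.00) and the highest CDKN1A in the CNOT4 arm (1.88).

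Levels are TMM-normalised CPM (read counts scaled to library size), and each mRNA is compared with itself across arms. ZMAT3 (ENSG00000172667, chr3:178960121-179072215, minus strand) was the mRNA that differed most. At 0 h it had 7.33, 5.03 and 5.99 CPM in the ZMAT3 knockdown, against 22.9, 45.2 and 40.2 CPM in NT. At 8 h it had 2.07, 9.76 and 6.56 CPM in the knockdown and 25.6, 24.8 and 44.3 CPM in NT. The 3 knockdown libraries lay below the 3 NT libraries at 3 of the 4 chase times. Over all times the knockdown libraries ran between 2.07 and 16.1 CPM with a median of 6.35, and the NT libraries between 15.4 and 45.2 CPM with a median of 25.2, so that the ranges met only at the knockdown's 4 h replicate 1. The level was 4.01-fold lower in the knockdown (log2 -2.00 ± 0.31 SE, adjusted p = 2.73e-05, n = 12 libraries per arm).

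ZMAT3 mRNA was called in 2 further arms. In the MAZ arm it fell to a mean of 14.3 ± 5.91 CPM, against 28.8 ± 10.0 CPM in NT (SD, n = 12 each, log2 -1.01 ± 0.30, adjusted p = 0.0237). That call was lost without replicate 1, 2 or 3, with adjusted p = 0.111, 0.134 and 0.137 in edgeR. It rose to 43.1 ± 7.32 CPM in the libraries labelled ZFP36L1 (log2 0.60 ± 0.18, adjusted p = 0.00852), which was lost without replicate 1 (log2 0.47, adjusted p = 0.106). The order of arm means ran ZFP36L1-labelled, CNOT4, ZMAT5, NT, PHF7, BRCA1, ZNF706, MAZ and ZMAT3, and neighbours in that order overlapped in range. In the ZNF706 arm ZMAT3 stood at log2 -0.84 ± 0.29 (adjusted p = 0.0918).

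**Figure D2:**
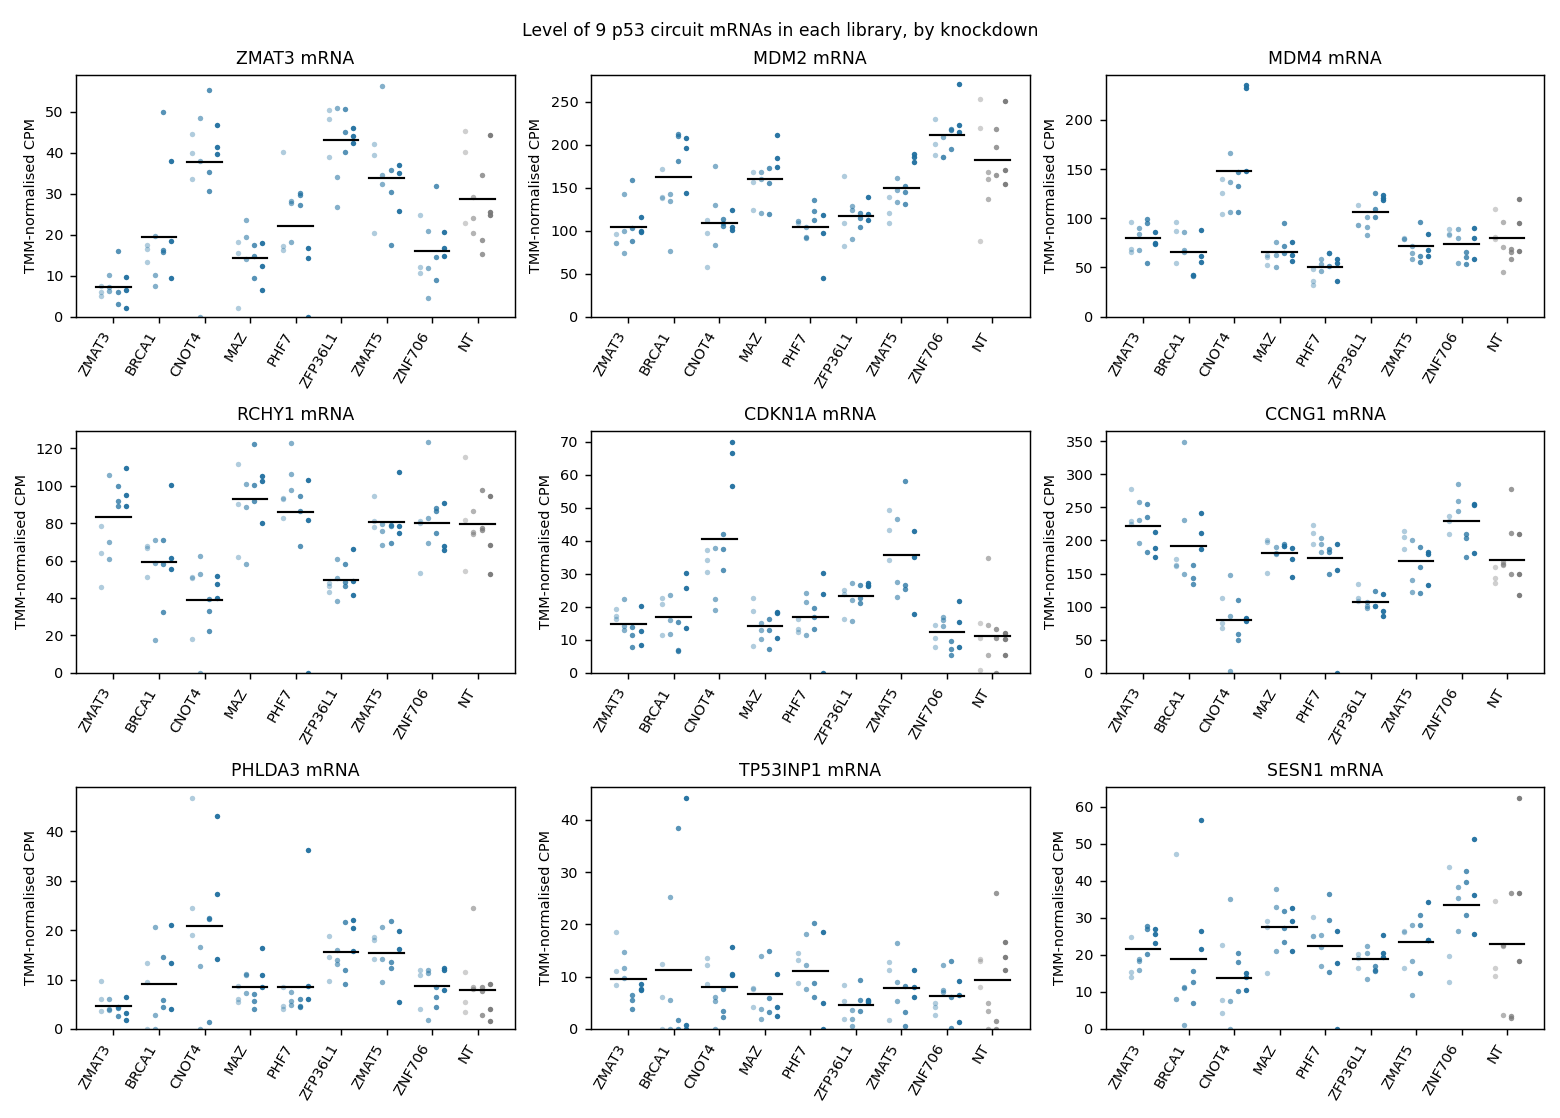
Level (TMM-normalised CPM, linear axis starting at 0) of each mRNA in all libraries, 12 per arm. Each dot is a library, darker for later chase times (0, 2, 4 and 8 h from left to right within an arm), the bar is the mean of 12 libraries, and NT (grey) is at the right. ZMAT3 mRNA sits lowest in the ZMAT3 knockdown, at a median of 6.35 CPM, against 25.2 CPM in NT.

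MDM2 (ENSG00000135679, chr12:68808177-68845544, plus strand), the ligase that degrades p53, was called lower than in NT in 4 arms and higher than in NT in none. At 0 h it had 95.8, 85.1 and 85.4 CPM in the ZMAT3 knockdown, against 87.6, 253 and 219 CPM in NT. Over all times the range was 74.0 to 159 CPM (median 98.9) in the ZMAT3 knockdown and 87.6 to 253 CPM (median 169) in NT, and the ranges overlapped, while at 2 of 4 chase times the groups of 3 did not. The difference was log2 -0.81 ± 0.14 (adjusted p = 8.76e-05), and it was called without each replicate number. MDM2 averaged 117 ± 21.4 CPM in the libraries labelled ZFP36L1, against 182 ± 48.2 CPM in NT (SD, n = 12 each, log2 -0.63 ± 0.13, adjusted p = 0.00016).

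With the other 7 knockdowns in place of NT, MDM2 in the libraries labelled ZFP36L1 was at log2 -0.29 (adjusted p = 0.109) and no longer called, and in the ZMAT3 knockdown at -0.49 (adjusted p = 0.0268). The MDM2 calls in the PHF7 and CNOT4 arms were lost without replicate 2. In the PHF7 arm MDM2 averaged 104 ± 22.5 CPM (log2 -0.77 ± 0.14, adjusted p = 0.000452), and without replicate 2 the log2 was -0.69 (adjusted p = 0.0775). It averaged 109 ± 28.0 CPM in the CNOT4 arm (log2 -0.75 ± 0.17, adjusted p = 0.000921), and without replicate 2 the log2 was -0.54 (adjusted p = 0.0766). MDM2 was highest in the ZNF706 arm, at 211 ± 24.0 CPM, where it was not called against NT (log2 0.22, adjusted p = 0.357). With the other 7 knockdowns as control it was called there. Counted bases of MDM2 include 132 that also belong to the opposite-strand gene CPM, carboxypeptidase M, whose own reads amounted to 0.0667% of those of MDM2.

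MDM4 (ENSG00000198625, chr1:204516379-204558120, plus strand), which blocks the activation domain of p53, moved in both directions. In the CNOT4 arm it had 148, 232 and 236 CPM at 8 h, against 94.9, 120 and 67.0 CPM in NT. Over all times it ranged between 104 and 236 CPM in the CNOT4 arm and between 45.8 and 120 CPM in NT, and the groups of 3 were apart at 3 of 4 times (log2 0.88 ± 0.15, adjusted p = 5.23e-05, called without each replicate number). The CNOT4 8 h libraries are among those in doubt, since their file headers read pulse-chase where the other arms read chase, and no level call was lost without them.

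MDM4 rose to 106 ± 14.3 CPM in the libraries labelled ZFP36L1, against 79.5 ± 21.6 CPM in NT (SD, n = 12 each, log2 0.42 ± 0.12, adjusted p = 0.00506), a call lost without replicate 3 (log2 0.30, adjusted p = 0.135). In the PHF7 arm it fell to 50.4 ± 10.9 CPM (log2 -0.63 ± 0.17, adjusted p = 0.0154), lost without replicate 1 (adjusted p = 0.269) and without replicate 2 (adjusted p = 0.266). The PHF7 arm was thus the one where both MDM2 and MDM4 were called lower, while in the CNOT4 arm and the libraries labelled ZFP36L1 MDM2 was called lower and MDM4 higher. MDM4 averaged 79.5 ± 14.3 CPM in the ZMAT3 knockdown, close to NT (log2 0.02 ± 0.14, adjusted p = 0.967).

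RCHY1 (ENSG00000163743, chr4:75479033-75514764, minus strand), also called PIRH2, is another p53 target whose product ubiquitinates p53. Its level fell in the libraries labelled ZFP36L1, where it ranged between 38.5 and 66.1 CPM with a median of 48.2, against 52.9 to 115 CPM with a median of 77.0 in NT (log2 -0.68 ± 0.14, adjusted p = 0.000122, called without each replicate number). The groups of 3 did not overlap at 3 of 4 chase times. It averaged 39.1 ± 17.9 CPM in the CNOT4 arm (log2 -1.05 ± 0.34, adjusted p = 0.0211), and the groups of 3 did not overlap at any of the 4 times, and CNOT4 2 h replicate 3, in which 6495 genes were detected, had 0 CPM. This call was lost without replicate 1 (adjusted p = 0.176) or replicate 2 (adjusted p = 0.181).

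CDKN1A (ENSG00000124762, chr6:36676460-36687337, plus strand) encodes p21, the inhibitor of cyclin-dependent kinases through which p53 stops the cell cycle. It was called higher than in NT in 3 arms and lower than in NT in none. In the ZMAT5 arm at 0 h it had 34.3, 49.1 and 43.1 CPM, against 0.701, 10.4 and 15.2 CPM in NT. Over all times the ZMAT5 libraries ran between 17.8 and 58.0 CPM (median 34.7) and the NT libraries between 0 and 34.8 CPM (median 10.5), with groups of 3 apart at 3 of 4 times (log2 1.78 ± 0.45, adjusted p = 0.00655). In the CNOT4 arm at 8 h it had 56.5, 66.6 and 69.8 CPM, against 11.9, 5.38 and 10.1 CPM in NT, and over all times a median of 37.4 CPM (log2 1.88 ± 0.51, adjusted p = 0.00602). Both calls held without each replicate number. It averaged 23.4 ± 3.99 CPM in the libraries labelled ZFP36L1 (log2 1.17 ± 0.45, adjusted p = 0.0372), lost without replicate 1, 2 or 3 (adjusted p = 0.0862, 0.0732 and 0.0919).

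The NT level of CDKN1A rested on few reads. The 3 NT libraries at 0 h held 8, 119 and 196 reads of CDKN1A, and NT 4 h replicate 1 held 0. Reads carry no molecular identifiers, so these are not counts of separate molecules. With the other 7 knockdowns in place of NT, CDKN1A was still called higher in the CNOT4 and ZMAT5 arms but not in the libraries labelled ZFP36L1. It averaged 14.7 ± 4.51 CPM in the ZMAT3 knockdown (log2 0.48 ± 0.48, adjusted p = 0.604).

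CCNG1 (ENSG00000113328, chr5:163437569-163446151, plus strand), which encodes cyclin G1, a target that recruits a phosphatase to MDM2, was called in 4 arms. In the libraries labelled ZFP36L1 it ranged between 86.3 and 133 CPM with a median of 104, against 117 to 278 CPM with a median of 161 in NT (log2 -0.67 ± 0.11, adjusted p = 6.47e-06, called without each replicate number). In the CNOT4 arm it averaged 79.4 ± 35.8 CPM, against 171 ± 43.4 CPM in NT (log2 -1.10 ± 0.27, adjusted p = 0.00246), with no overlap between groups of 3 at any of the 4 times, and without replicate 2 the log2 was -0.99 (adjusted p = 0.116). It rose to 222 ± 32.3 CPM in the ZMAT3 knockdown, with 225, 229 and 277 CPM at 0 h, against 143, 136 and 160 CPM in NT (log2 0.39 ± 0.10, adjusted p = 0.0113). That call was lost without replicate 1 (adjusted p = 0.156) and without replicate 3 (adjusted p = 0.0673). In the ZNF706 arm it averaged 229 ± 33.3 CPM (log2 0.43 ± 0.11, adjusted p = 0.0154), lost without replicate 1 (adjusted p = 0.240) and without replicate 2 (adjusted p = 0.114). The ZMAT3 and ZNF706 calls for CCNG1 were also lost with the other 7 knockdowns as control, and in the ZNF706 arm the sign turned at 4 h alone (log2 -0.12).

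PHLDA3 (ENSG00000174307, chr1:201464278-201469237, minus strand), a p53-induced inhibitor of AKT signalling, was called only in the libraries labelled ZFP36L1, at 15.6 ± 4.38 CPM, against 7.92 ± 6.01 CPM in NT (SD, n = 12 each, log2 1.07 ± 0.40, adjusted p = 0.0284). It was lost without replicate 1, 2 or 3 (adjusted p = 0.0765, 0.0511 and 0.155). The fitted difference was larger in the CNOT4 arm (log2 1.40 ± 0.61, adjusted p = 0.0909), where libraries ranged between 0 and 46.6 CPM. DESeq2 also called PHLDA3 higher in the CNOT4 and ZMAT5 arms. TP53INP1 (ENSG00000164938, chr8:94925972-94949378, minus strand), which promotes p53 activity and autophagy, and SESN1 (ENSG00000080546, chr6:108984309-109094846, minus strand), which encodes sestrin 1, a restraint on mTORC1, were called in none of the 8 knockdowns. TP53INP1 ranged between 0 and 26.1 CPM in the NT libraries and SESN1 between 3.01 and 62.3 CPM, with coefficients of variation of 84.1% and 76.2%. SESN1 varied by 17.4% in the libraries labelled ZFP36L1. Their SEs ran to log2 1.02 for TP53INP1 and 0.55 for SESN1, which bounds how small a difference could be seen for these mRNAs.

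Differences from NT were not called to depend on chase time for any member in any knockdown. Of 72 interaction tests in edgeR, 0 were called and 2 had an unadjusted p under 0.05, both for CCNG1 (BRCA1 arm, adjusted p = 0.779, and ZNF706 arm, adjusted p = 0.929). Among all genes, between 636 of 13308 (CNOT4 arm) and 1161 of 13253 (libraries labelled ZFP36L1) had an unadjusted p under 0.05. Over all genes 0.571% were called in the CNOT4 arm, 0.0157% in the BRCA1 arm and 0.0% in each of the other 6. Within single arms, 0 of 81 tests of a level change over the chase were called and 5 had an unadjusted p under 0.05. Among all genes, between 385 of 13353 (PHF7 arm) and 1664 of 13288 (MAZ arm) had one under 0.05. The largest share of all genes called was 0.639% in the CNOT4 arm, and NT had 0.00825%. RCHY1 in the ZMAT3 knockdown, at 64.3, 46.1 and 78.5 CPM at 0 h and 89.4, 109 and 95.3 CPM at 8 h, came closest (adjusted p = 0.287).

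The label gave a different picture from the level, and RCHY1 stood out. In NT the T>C conversion rate of RCHY1 mRNA, the percentage of covered T positions read as C, was 2.41%, 4.12% and 1.28% at 0 h, 0.905%, 1.23% and 0.598% at 2 h, 0.187%, 0.342% and 0.160% at 4 h, and 0.0116%, 0.00358% and 0.0116% at 8 h. The NT values at 8 h rested on 5, 1 and 4 conversions over 43190, 27912 and 34496 covered T positions. In the ZMAT3 knockdown the rate was 2.77%, 2.02% and 4.27% at 0 h, 3.24%, 3.26% and 2.79% at 2 h, 1.01%, 2.16% and 1.57% at 4 h and 0.301%, 0.547% and 0.664% at 8 h. At 0 h the ZMAT3 and NT libraries overlapped, and at 2, 4 and 8 h all ZMAT3 libraries lay above all NT libraries. The pooled conversion rate over 1985 genes was also higher in the ZMAT3 arm, at 2.34 to 3.31% at 0 h, 2.17 to 3.03% at 2 h, 1.68 to 2.60% at 4 h and 1.19 to 1.51% at 8 h, against 1.68 to 1.84%, 1.37 to 1.48%, 1.13 to 1.16% and 0.726 to 0.796% in NT at those times. With that rate in the offset of the fit below, the difference for RCHY1 in the ZMAT3 knockdown was -0.46 per h (edgeR adjusted p = 0.000179), and the same 6 calls were made.

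In the edgeR fit of conversions with T coverage as offset, label on RCHY1 declined by 0.244 per h in the ZMAT3 knockdown and by 0.698 per h in NT (difference -0.45 ± 0.07 per h, adjusted p = 0.00045). It was called slower in 6 of 8 knockdowns, all against the same NT libraries. The rates were 0.150 per h in the CNOT4 arm (adjusted p = 0.0228), 0.304 in the MAZ arm (0.0098), 0.220 in the PHF7 arm (9.26e-05), 0.296 in the libraries labelled ZFP36L1 (0.00243) and 0.202 in the ZMAT5 arm (0.000178), all in ln units per h with the edgeR adjusted p in brackets. The BRCA1 arm (0.305 per h, edgeR adjusted p = 0.532) and the ZNF706 arm (0.415 per h, adjusted p = 0.429) were not called, beside NT rates of 0.707 and 0.701 per h in those fits. Of all genes tested, 0.574% were called in the ZMAT3 arm (0.0133% faster, 0.560% slower), 0.0579% in CNOT4 and 0.0402% in MAZ (all slower), 0.307% in PHF7 (0.0134% faster, 0.294% slower), 0.0815% in the libraries labelled ZFP36L1 (0.0136% faster, 0.068% slower), 0.0684% in ZMAT5 (0.0137% faster, 0.0547% slower), 0.0137% in ZNF706 (all faster) and 0.0% in BRCA1.

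Without the 8 h libraries 0 of the 6 calls remained, with fewer libraries and at differences of -0.44 per h in ZMAT3 (adjusted p = 0.378), -0.40 in CNOT4 (1.00), -0.36 in MAZ (0.358), -0.39 in PHF7 (0.222), -0.36 in the libraries labelled ZFP36L1 (0.660) and -0.44 in ZMAT5 (0.504). The call in the ZMAT3 knockdown held without each replicate number (adjusted p = 0.0221, 0.0367 and 0.0310 without 1, 2 and 3), and that in ZMAT5 was lost without replicate 1 (adjusted p = 0.0746). In MAZ it was lost without each (adjusted p = 0.0697, 0.539 and 0.0996), and likewise in the libraries labelled ZFP36L1 (adjusted p = 0.18, 0.0829 and 0.0518). In CNOT4 and PHF7 it held without replicate 3, and without replicate 1 or 2 RCHY1 did not pass the minimum level there, so no value was had. With the other 7 knockdowns as control, RCHY1 was called in none. In the ZMAT3 knockdown its difference was then -0.02 per h, and it was positive in MAZ (0.05) and, among the others, in libraries labelled ZFP36L1 (0.04). The CNOT4 call was lost without the libraries in doubt, which include all CNOT4 8 h libraries. MAZ 4 h replicate 1, not among them, had a pooled conversion rate of 2.99%, against 2.61 to 2.95% in the MAZ 0 h libraries. The MAZ 4 h replicates 2 and 3 had 1.71% and 2.21%.

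**Figure D3:**
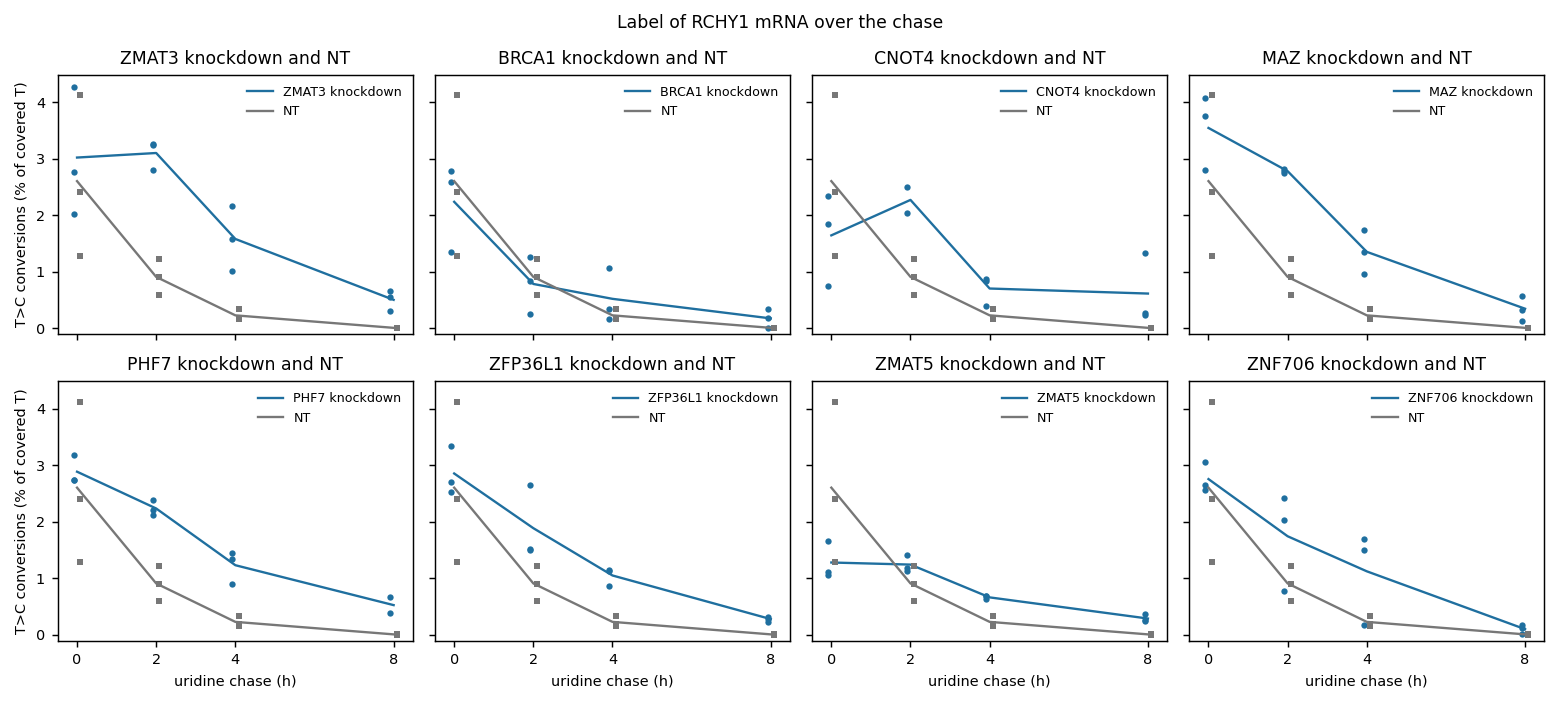
T>C conversions of RCHY1 mRNA as a percentage of covered T positions against hours of uridine chase, for each knockdown (blue circles, one per replicate, line through the means) and NT (grey squares, the same in every panel). At 8 h the NT libraries lie between 0.00358% and 0.0116%, and those of the ZMAT3 knockdown between 0.301% and 0.664%.

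Of 39 label loss tests over all members, the 6 calls in edgeR were all of RCHY1, limma called the same 6, and 17 tests had an unadjusted p under 0.05. These include RCHY1 in every knockdown, against the same NT libraries. Among all genes, between 511 of 7458 (MAZ arm) and 842 of 7494 (ZMAT3 arm) had an unadjusted p under 0.05. The others tested were ZMAT3, MDM2, MDM4 and CCNG1, ZMAT3 in all knockdowns but its own. CDKN1A, PHLDA3, TP53INP1 and SESN1 did not pass the minimum level at every time in both arms of any comparison. CCNG1 label declined by 0.0737 per h in the ZMAT3 knockdown and by 0.194 per h in NT (adjusted p = 0.268), and MDM4 at 0.198, against 0.393 (adjusted p = 0.306). For MDM2 in the ZNF706 arm the loss was 0.250 per h, against 0.405 per h in NT (adjusted p = 0.353). In NT CCNG1 lost label most slowly of the 5 tested members. When the other 7 knockdowns served as control, the one call was MDM4 in the BRCA1 arm.

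First-order half-lives, computed from replicate means set to 1 at 0 h and kept at R2 over 0.6, were obtained for 63 of 81 members and arms. They are descriptions with no test. Their minimum of 5 CPM was relative to reads in 3′ UTRs, and that of the label loss tests to mapped reads. In NT they were 1.78 h for ZMAT3, 2.09 h for MDM2, 1.35 h for MDM4, 1.26 h for RCHY1, 1.00 h for CDKN1A and 5.61 h for CCNG1. The replicate curves of NT spread between 1.14 and 3.20 h for ZMAT3 and between 1.91 and 2.31 h for MDM2. The spread was 0.942 to 1.75 h for MDM4, 1.13 to 1.59 h for RCHY1 and 2.37 to 9.02 h for CCNG1. For CDKN1A 2 replicate curves of NT reached the R2 minimum, at 0.543 and 1.36 h, and its NT reads were few, as given above. CCNG1 was the longest-lived member in each of the 9 arms, with half-lives between 5.61 and 18.7 h. The highest of these, in the CNOT4 arm, rests on the curve through the means, as 0 replicate curves there reached the R2 minimum.

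Half-lives in the ZMAT3 knockdown were 3.39 h for what remained of ZMAT3 mRNA, 2.61 h for MDM2, 4.07 h for MDM4, 4.71 h for RCHY1, 4.40 h for CDKN1A, 2.29 h for TP53INP1, 2.66 h for SESN1 and 12.7 h for CCNG1. Replicate curves that reached the R2 minimum there gave 6.07 and 8.39 h for CCNG1, 2.86 and 2.91 h for CDKN1A, 2.96 and 4.20 h for RCHY1, 2.31 to 6.25 h for MDM4 and 1.84 to 4.17 h for MDM2. Over the arms with a value, RCHY1 ranged between 1.26 h (NT) and 4.82 h (ZMAT5 arm), MDM4 between 1.35 h (NT) and 4.22 h (CNOT4 arm), and MDM2 between 2.09 h (NT) and 4.20 h (ZNF706 arm). NT had the shortest half-life of all arms for each of the 6 members with a value in NT. The share of all genes with their shortest half-life in NT was not computed. Over all genes tested for label loss, the median difference from NT lay between -0.056 per h (CNOT4 arm) and 0.012 per h (libraries labelled ZFP36L1). All knockdowns are set against the same 12 NT libraries, and an NT arm of faster loss and slower knockdowns cannot be told apart from these values. TP53INP1 had a half-life in 2 arms, PHLDA3 in 5 and SESN1 in 7, none of them NT.

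**Figure D4:**
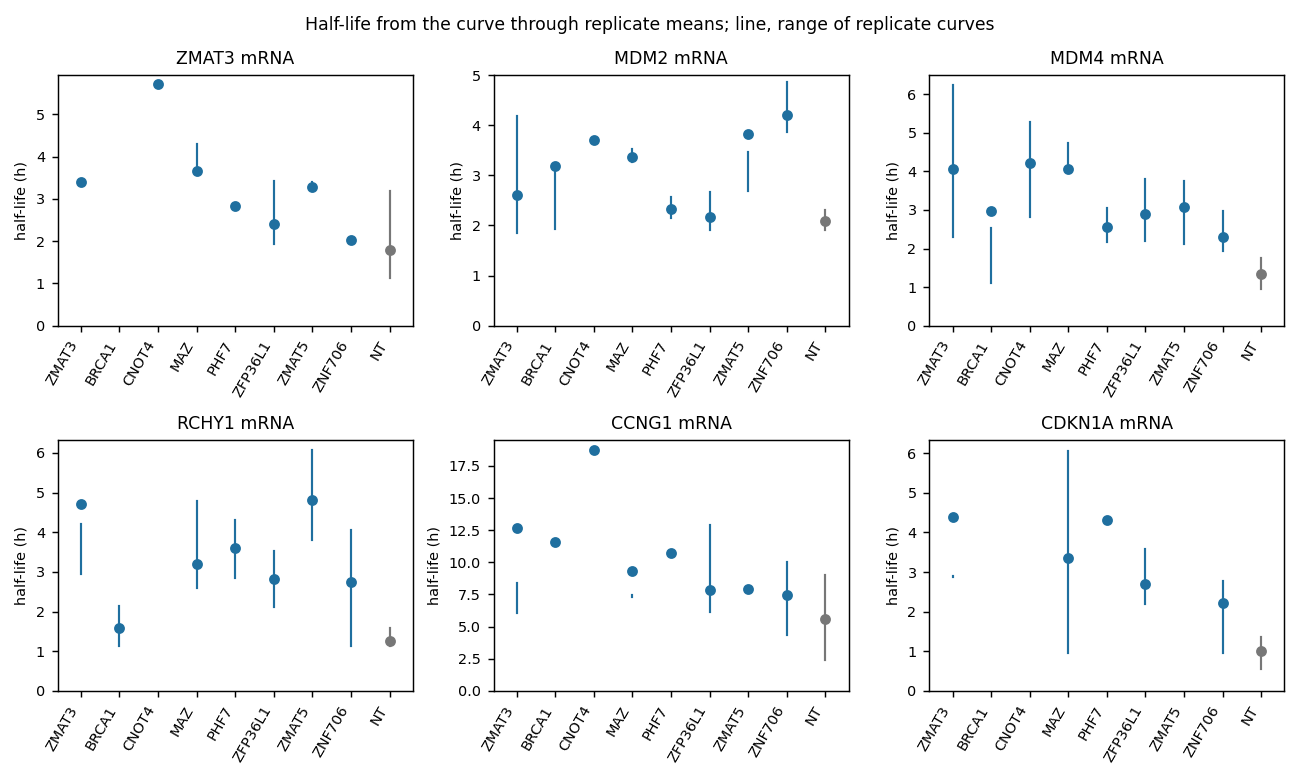
Half-life in h (linear axis starting at 0) of 6 mRNAs in each arm with R2 over 0.6, from the curve through replicate means (dot). The line spans the replicate curves that reach that R2 where there are at least 2, and need not include the dot. NT (grey, right) is at 1.26 h for RCHY1 and 5.61 h for CCNG1.

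At 0 h the label of members, read relative to the pooled conversion rate of each library, was called in 0 of 49 tests, with 5 at an unadjusted p under 0.05. Among all genes, between 295 of 8074 (BRCA1 arm) and 1045 of 8162 (libraries labelled ZFP36L1) had an unadjusted p under 0.05. Of all genes tested, 0.0368% were called in the libraries labelled ZFP36L1 and 0.0124% in the CNOT4 arm, 0.0119% in the PHF7 arm and 0.0% in the other 5. TP53INP1 showed the widest gap. It had 223, 257 and 1149 conversions at 0 h in the ZMAT3 knockdown, over 8132, 10787 and 26074 covered T positions, and 0, 3 and 1 in NT, over 8392, 9213 and 5026 (adjusted p = 0.202). In the PHF7 arm it had 738, 362 and 555 conversions (adjusted p = 0.121). NT libraries at 0 h held 152, 149 and 104 reads of TP53INP1, so reads without conversions were present there.

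Other genes of the pathway were read from 2 lists. Of 50 p53 targets, members left out, 43 to 45 were tested per knockdown. Each count is followed by the percentage of the tested list that was called and that of all genes. Of the targets, 2 were called higher and 2 lower in the ZMAT3 arm (9.30% of the list, 10.2% of all genes). The CNOT4 arm had 14 higher and 5 lower (43.2%, all genes 27.0%), at a list median of log2 0.32 beside 0.08 for all genes. The libraries labelled ZFP36L1 had 7 and 6 (29.5%, all genes 40.0%), at a median of 0.08 beside 0.15. PHF7 had 0 and 3 (6.98%, all genes 8.41%), ZNF706 1 and 0 (2.33%, all genes 5.15%), MAZ 3 and 2 (11.1%, all genes 8.74%), ZMAT5 4 and 1 (11.4%, all genes 9.51%) and BRCA1 0 and 1 (2.22%, all genes 0.0785%). Among targets in the ZMAT3 knockdown the 2 with the smallest adjusted p were BAX, which opens the mitochondrial membrane in apoptosis, at 113 ± 11.3 CPM, against 177 ± 29.8 CPM in NT (SD, n = 12 each, log2 -0.65, adjusted p = 1.87e-06), and PERP, an apoptosis and desmosome protein, at 318 ± 23.7 CPM, against 216 ± 45.0 CPM in NT (log2 0.56, adjusted p = 3.97e-05).

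BAX was also called lower in 3 further arms, by log2 -0.70 in PHF7, -4.39 in CNOT4 and -3.44 in the libraries labelled ZFP36L1. In these last 2 it averaged 9.23 ± 6.08 and 16.5 ± 5.66 CPM, and they are the arms with fewer covered T positions per read, whose part in the result was not tested. PERP was also called higher in ZMAT5 (log2 1.03) and lower in CNOT4 (-0.42) and the libraries labelled ZFP36L1 (-0.39). PMAIP1, the BH3-only protein NOXA, was called higher in the ZMAT3, CNOT4 and ZMAT5 arms (log2 0.49, 0.63 and 0.75) and lower in the BRCA1 arm (log2 -0.67, adjusted p = 0.0375), where it was the only target called. BBC3, the BH3-only protein PUMA, was called lower in PHF7 (log2 -1.25) and higher in CNOT4 (log2 0.88). SESN2, the stress-induced relative of SESN1, was called higher in CNOT4 (log2 1.13), MAZ (0.74) and the libraries labelled ZFP36L1 (0.81). TRIAP1, an inhibitor of apoptosis, was called higher in MAZ, ZMAT5 and ZNF706 (log2 0.51, 0.34 and 0.33), and BLOC1S2 lower in CNOT4 and the libraries labelled ZFP36L1 (log2 -0.91 and -1.16).

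Of 27 regulators of p53, 26 were tested in each arm. The ZMAT3 knockdown had 1 higher and 5 lower (23.1% of the list, 10.2% of all genes), and the PHF7 arm 0 and 5 (19.2%, all genes 8.41%). The CNOT4 arm had 4 higher and 8 lower (46.2%, all genes 27.0%), and the libraries labelled ZFP36L1 5 and 6 (42.3%, all genes 40.0%). MAZ had 2 and 1 (11.5%, all genes 8.74%), ZMAT5 1 and 2 (11.5%, all genes 9.51%) and ZNF706 2 and 2 (15.4%, all genes 5.15%), and in BRCA1, where 0.0785% of all genes were called, edgeR called none. HIPK2, a kinase that phosphorylates p53, was called lower in the ZMAT3 (63.6 ± 8.05 CPM, against 141 ± 40.2 CPM in NT, log2 -1.14, adjusted p = 7.93e-08), MAZ, PHF7 and ZMAT5 arms and higher in CNOT4 (log2 1.19) and the libraries labelled ZFP36L1 (log2 0.38). CDKN2A, the locus of p16 and of ARF, which inhibits MDM2, was called lower in 5 arms, by log2 -0.38 in ZMAT3, -0.70 in CNOT4, -0.52 in PHF7, -0.79 in the libraries labelled ZFP36L1 and -0.38 in ZNF706.

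Of the ribosomal proteins that bind MDM2, RPL11 was called higher in 6 arms, by log2 0.33 in ZMAT3 to 2.66 in the libraries labelled ZFP36L1. RPL23 was called higher in CNOT4, MAZ, the libraries labelled ZFP36L1 and ZNF706 and lower in PHF7 (log2 -0.43), and RPL5 lower in ZMAT3, CNOT4 and PHF7 (log2 -0.36, -0.57 and -0.68). CSNK1A1, the casein kinase that works with MDM4, was called lower in ZNF706 (log2 -0.48) and the libraries labelled ZFP36L1 (log2 -0.28). Ribosomal protein genes have many near-identical pseudogene copies, and reads that map to several places were kept in the alignment, so their counts are uncertain. Such reads made up 9.21 to 12.4% of 3′ UTR reads in the libraries labelled ZFP36L1, where RPL11 stood at log2 2.66. The CNOT4 arm had 5.82 to 11.9%, with RPL11 at log2 1.62, and NT had 6.66 to 6.91%. The part of these reads in the RPL11 and RPL23 calls was not tested.

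Nearly all reads of each member fell in 1 deposited interval, between 97.2% (RCHY1) and 100% of its reads over all libraries. The share of the main RCHY1 interval was 94.3% in the libraries labelled ZFP36L1 and 94.7% in the CNOT4 arm, against 98.0% in NT, and 99.4% in the ZNF706 arm. Reads mapping to several places made up between 0.0163% (SESN1) and 2.09% (TP53INP1) of a member's reads.

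Over 36 means of arm and chase time, the pattern most like that of a member was described by Pearson's r across 10488 genes with a mean of at least 5 CPM. These means share arms, depth and library preparation, and r is given without a test. Without the ZMAT3 arm, over 32 means, ZMAT3 was most like GNL1 (r = 0.86) and SH3BP5 (0.82). MDM2 was most like PAGR1 (0.80) and STK38 (0.79), MDM4 like CEP152 (0.85) and KPNA6 (0.84), and CDKN1A like TRIM56 (0.80) and MYADM (0.79). RCHY1 was most like TMEM248 (0.94) and APOLD1 (0.93), and CCNG1 like TSN (0.95) and APEX1 (0.95). PHLDA3 followed TNPO1 (0.72) and IRF1 (0.70), TP53INP1 followed MLX (0.68) and EYA1 (0.65), and SESN1 followed SLC46A1 (0.83) and RAD17 (0.80). Among the members themselves, RCHY1 and CCNG1 were the closest pair (r = 0.86), followed by RCHY1 and SESN1 (0.71) and by CDKN1A and PHLDA3 (0.62).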

How the data were processed

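The 9 members and the gene lists were chosen with earlier results of these data known. The authors aligned 3′ end reads to hg38 with SlamDunk 0.4.3, multi-mapping reads included, and deposited for each library and 3′ UTR interval a read count, T>C reads, covered T positions and conversions. The deposited CPM is relative to mapped reads. It served for the minimum of 5 CPM in label fits and for choosing the 1985 genes of the pooled rate. The minimum for half-lives was relative to reads in 3′ UTRs. The deposited conversion rate is a fraction of covered T positions and was recomputed here from summed counts. No source used here gives a strand setting.

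Counts were summed per gene and named with GENCODE 44. Libraries held a median of 14870063 reads in 3′ UTRs (63659 to 30750027), without molecular identifiers. Groups came from the labels, and all comparisons share NT. Level was tested with edgeR 4.0.16 (TMM, filterByExpr, quasi-likelihood) on 12 libraries of a knockdown and 12 of NT, adjusting for chase time (19 residual degrees of freedom). Calls needed an adjusted p under 0.05 and a fold over 1.2. Printed CPM are TMM-normalised over all libraries. Label loss was the slope of conversions over chase hours, offset by log T coverage. It was fitted where at least 2 replicates passed the minimum at every time of both arms. Label at 0 h also took the pooled rate of 1985 genes as offset.

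All members are named. From the lists, genes called in at least 5 knockdowns in 1 direction and the 2 of smallest adjusted p per knockdown are named. For likeness, the 2 of highest r are named. Alternatives were DESeq2 1.42.0, limma 3.58.1, other scalings, filters, controls, times and left-out libraries. The libraries in doubt were PHF7 8 h replicate 3, CNOT4 2 h replicate 3 and all CNOT4 8 h libraries.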

Additional observations from a re-analysis of the deposited data

How the results depend on the processing

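Of 20 level calls, 2 remained called with 0 h libraries alone, which hold 6 libraries per fit, and in fits chosen after seeing the data 1 with 2 h, 8 with 4 h and 4 with 8 h libraries alone. Without 1 replicate number the count lay between 11 and 17, and with the other 7 knockdowns in place of NT 14 of the 20 remained among 21 calls. The 7 calls gained were MDM2, CDKN1A and SESN1 in ZNF706, ZMAT3, PHLDA3 and SESN1 in CNOT4, and PHLDA3 in ZMAT3. DESeq2 called 23. The replicate block left 20 level and 6 label loss calls and changed no call. The pairing check compared knockdown and NT libraries of the same number and chase time, with mean correlations between -0.00604 and 0.00433. It showed no pairing of those libraries. Whether a number links the chase times within an arm was not checked. The log2 of ZMAT3 in its own knockdown was -1.66 (adjusted p = 0.249) at 2 h, -1.44 (0.529) at 4 h and -2.35 (0.167) at 8 h alone, and between -2.30 and -1.89 without 1 replicate number. CCNG1 in ZNF706 turned to -0.12 at 4 h alone.

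The 6 label loss calls became 0 without 8 h (differences between -0.44 and -0.36 per h), between 1 and 4 without 1 replicate number (in CNOT4 and PHF7 no value was had without replicate 1 or 2), and 1 (MDM4 in BRCA1) with the other 7 knockdowns as control, an alternative chosen after seeing the data, where the RCHY1 difference turned to 0.0518 per h (MAZ) and 0.0413 per h (libraries labelled ZFP36L1). The cause was not tested. T coverage alone as offset gave 1 call at 0 h (TP53INP1 in ZMAT3), against 0 in the report, and no low-count filter gave 1 call of a change over the chase (RCHY1 in ZMAT3), against 0. The number of half-lives stayed within 1.5 times 63. Low read numbers of CDKN1A, PHLDA3, TP53INP1 and SESN1 limited what could be seen for these mRNAs.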
